A study of Mus musculus with 12 samples.

Results

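The 10 genes examined here, of 24537 in the deposited table of mouse liver mRNA, were the 7 sirtuins (Sirt1 to Sirt7) and 3 genes of NAD metabolism, Nampt, Nadk and Cd38. They were chosen by gene symbol, and each symbol was found once. The livers came from male mice of the inbred strain C57Bl/6J, which were 6 weeks old at the start and housed individually. Con mice ate ad libitum. CR mice received 30% less food than Con mice. Liver RNA was sequenced after 25 and 30 days of the intervention, with 3 Con and 3 CR mice at each time. The study's methods describe a fortified version of the Con diet for CR mice, given once a day at noon, and heavy water in the days before collection, so the restriction, the diet formula and the meal time cannot be told apart. The design asks how CR altered hepatic mRNA before and after a slowdown in protein synthesis that the study places between these days.

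NAD carries electrons in metabolism and is also broken down by sirtuins, which remove acetyl and other acyl groups from proteins and release nicotinamide. Nicotinamide is returned to NAD by salvage, in which NAMPT makes nicotinamide mononucleotide in the rate-limiting step, and the liver can also make NAD from tryptophan or nicotinic acid. SIRT1, SIRT6 and SIRT7 are mainly nuclear, SIRT2 is mainly cytosolic, and SIRT3, SIRT4 and SIRT5 are mitochondrial. In liver, SIRT1 and SIRT3 are known for the deacetylation of regulators and enzymes of fasting metabolism.

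Levels are given as the deposited FPKM, exonic reads scaled by exon length and library depth, and so can be compared between genes. Library depth, worked out from the smallest steps between FPKM values, was 15748724 to 23345541 reads, of which 78.1% to 84.3% lay on exons. Libraries keep the names of the table, with Con7 to Con9 and CR7 to CR9 at day 25 and Con10 to Con12 and CR10 to CR12 at day 30, and values are listed in that order. The libraries of a group are numbered as separate livers, and p-values measure the spread between them. All 5 hepatocyte markers (Alb, Apoa1, Ttr, Cps1 and Serpina1c) were detected in every library, with summed levels of 37030 to 50530 FPKM in Con mice and 49180 to 62780 FPKM in CR mice. In the test against Con described below, 0 of the 5 were called at day 25. At day 30, 2 rose and 1 fell, and over both days 1 rose and 2 fell. Calls over all tested genes were 14.9% at day 25, 24.7% at day 30 and 40.6% over both days. At this size of list the counts carry no result about the 5 together. The summed levels overlapped between the diets at day 25. At day 30 they did not, with 37030 to 45510 FPKM in Con mice and 52580 to 62780 FPKM in CR mice. In bulk liver, fewer cells of a type and less RNA per cell cannot be told apart.

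All 10 genes reached the limit of 1 FPKM in at least 3 libraries, and their levels spanned from Nadk at the top to Sirt6 at the bottom. In Con mice over both days, Nadk (NAD kinase) stood at 56.3 ± 6.13 FPKM (SD, n = 6). Sirt3 followed at 43.2 ± 5.17 FPKM (SD, n = 6). Sirt2 stood at 27.4 ± 2.12 FPKM (SD, n = 6). The mitochondrial deacetylase and the cytosolic one were thus the best represented sirtuin mRNAs. Sirt7 stood at 19.1 ± 2.36 FPKM (SD, n = 6) and Nampt at 17.4 ± 2.92 FPKM (SD, n = 6). A gap separated these from Sirt5 at 6.71 ± 0.654 FPKM, Sirt4 at 4.63 ± 0.210 FPKM and Sirt1 at 3.18 ± 0.700 FPKM (SD, n = 6 each). At the low end were Cd38 at 1.85 ± 0.363 FPKM and Sirt6 at 1.51 ± 0.308 FPKM (SD, n = 6 each). Of the neighbours in this order, Nadk and Sirt3, Sirt7 and Nampt, Sirt1 and Cd38, and Cd38 and Sirt6 had overlapping values in Con mice, and the other neighbours did not overlap. Depth differed accordingly, with 32 to 59 reads per library behind Sirt6, 75 to 175 behind Cd38 and 2874 to 4848 behind Nadk.

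In CR mice the order kept the same genes at the top and bottom, and Nampt moved up to follow Sirt3, at 34.9 ± 4.30 FPKM (SD, n = 6), where it overlapped with Sirt2 at 29.4 ± 1.52 FPKM (SD, n = 6). Nadk stood at 69.0 ± 2.37 FPKM and Sirt3 at 54.3 ± 7.26 FPKM (SD, n = 6 each). Sirt4, at 3.64 ± 0.413 FPKM, overlapped with Sirt1, at 3.56 ± 0.759 FPKM (SD, n = 6 each), whereas in Con mice the Sirt4 values all lay above those of Sirt1.

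**Figure D1:**
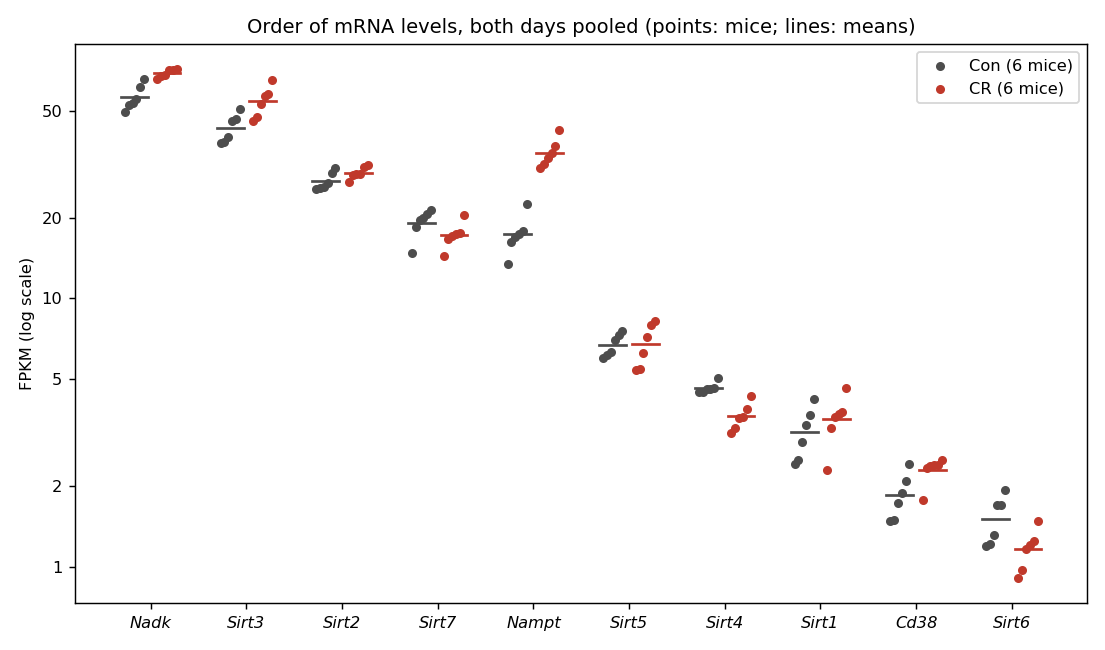
FPKM on a log axis of the 10 genes, in descending order of their Con mean, with a point for each of 6 Con (grey) and 6 CR (red) mice and a line at each mean. Nampt stands out as the gene whose CR points, between 30.6 and 42.4 FPKM, lie wholly above its Con points and reach the level of Sirt2.

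CR was compared with Con by limma on log2(FPKM + 1) over 10593 tested genes, with a Benjamini-Hochberg adjusted p under 0.1 as the call. At day 25, 1 of the 10 genes rose (Nampt) and 0 fell, where 14.9% of all tested genes were called (5.6% higher and 9.34% lower in CR). At day 30, 2 rose (Nampt and Nadk) and 1 fell (Sirt4), beside 24.7% of all tested genes (8.33% higher, 16.4% lower). Over both days, with day as a covariate, 4 rose (Nampt, Nadk, Sirt3 and Cd38) and 2 fell (Sirt4 and Sirt6), beside 40.6% of all tested genes (14.5% higher, 26.1% lower). At this size of list the counts did not stand far from those shares, so they carry no result about the 10 genes together. Their median log2 fold changes were 0.14 at day 25, 0.08 at day 30 and 0.11 over both days, beside −0.04, −0.07 and −0.05 over all tested genes. A change of at least 2-fold was called in Nampt at day 30 and in none of the 10 at day 25 or over both days, where 1.48%, 2.21% and 1.66% of all tested genes met both criteria at day 25, at day 30 and over both days. Of all called genes, 37.5% at day 25, 33.7% at day 30 and 35.7% over both days were higher in CR. These shares were 53.8%, 51.6% and 52.8% with median-ratio scaling, and 47.8%, 50.4% and 50.3% with quantile normalization. With TPM they were lower than in the main fit, at 34.8%, 29.6% and 32%.

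**Figure D2:**
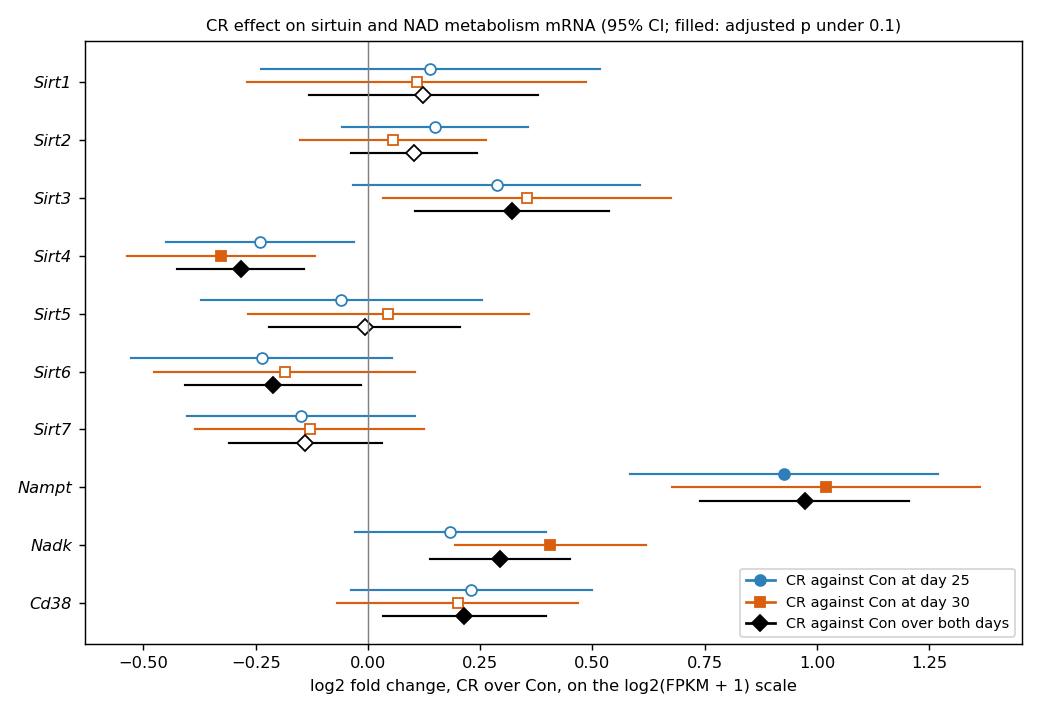
Log2 fold change of CR over Con on the log2(FPKM + 1) scale for each gene at day 25 (circles), day 30 (squares) and over both days (diamonds), with 95% confidence intervals and filled symbols for an adjusted p under 0.1. Nampt lies near 1 in all 3 comparisons, and every other gene lies between −0.33 and 0.41.

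Nampt encodes the nicotinamide phosphoribosyltransferase that limits NAD salvage, and it was the gene with the largest CR difference of the 10. Its mRNA (NM_021524, mm10 chr12:32820335-32853369, plus strand) stood at 16.2, 17.9 and 16.9 FPKM in Con mice and at 34.7, 31.6 and 33.3 FPKM in CR mice at day 25. At day 30 it stood at 13.5, 22.4 and 17.4 FPKM in Con mice and at 30.6, 36.9 and 42.4 FPKM in CR mice. Each of the 6 CR mice lay above each of the 6 Con mice. The ratio of the mean FPKM was 1.95 at day 25 and 2.06 at day 30. On the log2(FPKM + 1) scale Nampt rose by 0.93 at day 25 (SE 0.158, limma with Benjamini-Hochberg adjustment, adjusted p = 0.00459) and by 1.02 at day 30 (SE 0.158, adjusted p = 0.00150). Over both days the log2 difference was 0.97 (SE 0.108, limma, adjusted p = 4.93e-05), with a 95% confidence interval of 0.74 to 1.21. Behind these values were 1251 to 4486 reads per library.

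Because Nampt carried the largest difference, the 250 bases before its annotated start are shown, at mm10 chr12:32820085-32820334 on the plus strand, from the RefSeq annotation of GRCm38.p6. Capitals mark the GC box GGGCGG or its reverse complement, a word bound by SP family factors.
Nampt: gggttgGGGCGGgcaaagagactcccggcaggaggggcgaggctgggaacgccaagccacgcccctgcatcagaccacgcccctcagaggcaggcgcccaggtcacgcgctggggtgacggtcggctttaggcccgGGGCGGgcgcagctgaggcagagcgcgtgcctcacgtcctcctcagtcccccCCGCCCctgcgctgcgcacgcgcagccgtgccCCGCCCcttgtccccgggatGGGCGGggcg
The window held 5 GC boxes, beginning 244, 114, 62, 30 and 10 bases before the start, and 75.6% of its bases were G or C. GC boxes occurred in 32.7% of 32851 windows of the same length over all annotated genes and in 8 of the 13 windows of the 10 genes. The window of Sirt1, a gene without a call, held 6 GC boxes and 79.2% G or C. The E-box CACGTG, a word read by clock and MYC family proteins, was not in this window, nor were the forkhead word GTAAACA or the CRE TGACGTCA. All words were searched on both strands, and none of the 4 contains another.

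Nadk encodes the cytosolic kinase that turns NAD into NADP, and it was the most abundant mRNA of the group. At day 25, Nadk (NM_138671, mm10 chr4:155562392-155591001, plus strand) stood at 53.4, 61.3 and 65.9 FPKM in Con mice and at 65.8, 67.8 and 71.3 FPKM in CR mice. The day 30 levels were 52.4, 55.4 and 49.5 FPKM in Con mice and 71.1, 67.3 and 70.8 FPKM in CR mice. The groups were apart at day 30, while at day 25 the highest Con mouse lay just above the lowest CR mouse. The CR difference on the log2 scale was 0.18 at day 25 (SE 0.0980, limma with Benjamini-Hochberg adjustment, adjusted p = 0.270). At day 30 Nadk rose by 0.41 (SE 0.0980, limma, adjusted p = 0.0158), and over both days by 0.29 (SE 0.0722, adjusted p = 0.00836). The difference between the days was 0.22 on the log2 scale, with a 95% confidence interval of −0.08 to 0.52, and was not called.

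Cd38 encodes an NAD glycohydrolase that sits mostly on the cell surface and is best known from immune cells. Its level (NM_007646, mm10 chr5:43868809-43912374, plus strand) was 1.88, 1.72 and 1.48 FPKM in Con mice and 2.33, 1.78 and 2.40 FPKM in CR mice at day 25. The corresponding values at day 30 were 2.08, 2.42 and 1.49 FPKM in Con mice and 2.38, 2.36 and 2.50 FPKM in CR mice. Con and CR values overlapped on both days. The log2 difference was 0.23 at day 25 (limma with Benjamini-Hochberg adjustment, adjusted p = 0.273) and 0.20 at day 30 (adjusted p = 0.288). Over both days Cd38 rose by 0.21 (SE 0.0837, limma, adjusted p = 0.0664). This call was lost with TPM (adjusted p = 0.115), with no filter on low values (adjusted p = 0.107), and without Con9 (adjusted p = 0.128), CR7 (0.119), CR9 (0.135), Con12 (0.144) or CR12 (0.106).

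Other liver cells can hold Cd38 mRNA, so their markers are given beside it. The 5 Kupffer cell markers summed to 28.5 to 54.4 FPKM in Con mice and 20.6 to 36.7 FPKM in CR mice. At day 25 and over both days 3 of the 5 fell, and at day 30, 0 were called. Among all tested genes, 9.34% were lower in CR at day 25 and 16.4% at day 30. Over both days 26.1% were lower and 14.5% higher. The 4 B cell markers summed to 0.930 to 1.77 FPKM in Con mice and 0.155 to 0.778 FPKM in CR mice, none of them high enough to be tested. The 4 T and NK cell markers summed to 0.312 to 1.13 FPKM in Con mice and 0.387 to 1.11 FPKM in CR mice, again with none tested. The B cell sum lay lower in every CR mouse than in every Con mouse, and the other immune sums overlapped between the diets. Sinusoidal endothelial markers summed to 26.7 to 40.7 FPKM in Con mice and 34.3 to 43.1 FPKM in CR mice, and 2 of 4 rose over both days. Stellate cell markers summed to 43.9 to 55.9 FPKM in Con mice and 58.7 to 74.9 FPKM in CR mice, and 2 of the 3 tested rose over both days. The 4 cholangiocyte markers summed to 2.07 to 4.12 FPKM in Con mice and 2.16 to 3.41 FPKM in CR mice. No marker of any list was at 0 in every library, and the part of these cells in the Cd38 values was not tested.

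**Figure D3:**
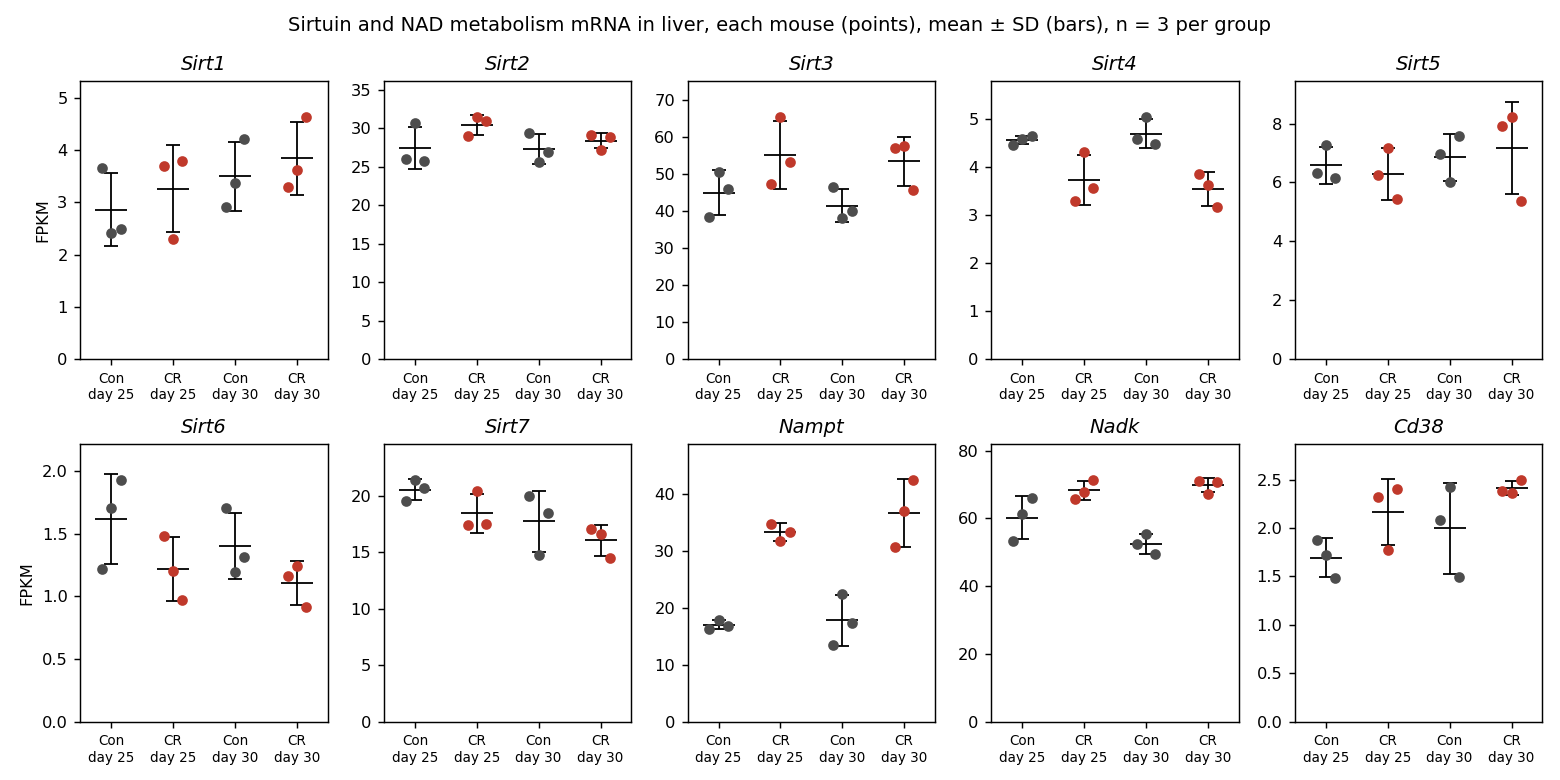
FPKM of each of the 10 genes by group, with a point for each mouse and bars for the mean and SD of 3 mice, each axis starting at 0. The CR points of Nampt lie above and those of Sirt4 below all Con points on both days, and Nadk separates at day 30.

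Among the mitochondrial sirtuins, Sirt3, the main deacetylase of the organelle, was higher in CR mice. Sirt3 (NM_001177804, mm10 chr7:140863663-140881869, minus strand) stood at 38.4, 50.6 and 46.0 FPKM in Con mice and 47.3, 65.3 and 53.2 FPKM in CR mice at day 25. At day 30 the levels were 46.5, 38.0 and 40.0 FPKM in Con mice and 57.0, 57.6 and 45.7 FPKM in CR mice. The group means differed in the same direction on both days, with some overlap at each. The share of reads on exons was 78.1% to 83.6% in Con and 80.9% to 84.3% in CR mice at day 25. At day 30 it was 78.2% to 80.6% in Con and 80.5% to 82.3% in CR mice. Within every group the Sirt3 levels had the same order as these shares. The part of the exonic share in the Sirt3 difference was not tested. Sirt3 rose over both days by 0.32 on the log2 scale (SE 0.1001, limma with Benjamini-Hochberg adjustment, adjusted p = 0.0274). At day 25 alone the log2 difference was 0.29 (SE 0.147, limma, adjusted p = 0.249), and it was called with the replicate number as a block (adjusted p = 0.0707), which brought the called genes among the 10 at that day from 1 to 2. At day 30 alone it was 0.35 (limma, adjusted p = 0.119), and it was called with median-ratio scaling (adjusted p = 0.0461), TPM (0.0683), quantile normalization (0.0577), and without CR8 (0.0919) or CR12 (0.0756). The annotation places 61 bases of Sirt3 exon on exons of Ric8a on the opposite strand, and whether the counting used strand is not given in the sources used here.

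Sirt4, a mitochondrial sirtuin with lipoamidase and ADP-ribosyltransferase activity, moved the other way. Its mRNA (NM_133760, mm10 chr5:115478010-115484484, minus strand) stood at 4.46, 4.58 and 4.64 FPKM in Con mice and 3.30, 4.31 and 3.57 FPKM in CR mice at day 25. Con mice at day 30 stood at 4.58, 5.03 and 4.48 FPKM and CR mice at 3.85, 3.63 and 3.16 FPKM. Each CR mouse lay below each Con mouse, with 105 to 166 reads per library behind the values. Sirt4 fell at day 30, with a log2 difference of −0.33 (SE 0.0963, limma with Benjamini-Hochberg adjustment, adjusted p = 0.0371). The day 30 call was lost with quantile normalization (adjusted p = 0.126) and without Con11 (0.122) or CR12 (0.116). The log2 difference over both days was −0.28 (SE 0.0658, limma, adjusted p = 0.00617), which passed the call. At day 25 it was −0.24 (limma, adjusted p = 0.144), and it was called with TPM (adjusted p = 0.0763) and without CR8 (0.0588).

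Sirt5, the mitochondrial desuccinylase, showed no call in any comparison. At day 25 Sirt5 (NM_178848, mm10 chr13:43370716-43395203, plus strand) stood at 6.31, 7.29 and 6.14 FPKM in Con mice and 6.25, 7.19 and 5.44 FPKM in CR mice. By day 30 the Con values were 6.97, 6.00 and 7.58 FPKM and the CR values 7.93, 8.21 and 5.39 FPKM. The groups overlapped throughout, and CR mice at day 30 held both the highest and the lowest Sirt5 value of the series. Over both days the log2 difference was −0.01, with a 95% confidence interval of −0.22 to 0.21 (limma, adjusted p = 0.966), and its sign turned with median-ratio scaling (0.06) and quantile normalization (0.06).

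The nuclear sirtuins were less abundant, apart from Sirt7. Sirt1 encodes the deacetylase best known as an NAD-dependent regulator in fasting, and its mRNA (NM_001159589, mm10 chr10:63319005-63339035, minus strand) stood at 3.66, 2.42 and 2.49 FPKM in Con mice and 3.70, 2.30 and 3.79 FPKM in CR mice at day 25. Livers taken at day 30 gave 2.92, 3.37 and 4.21 FPKM in Con mice and 3.30, 3.62 and 4.63 FPKM in CR mice. Con and CR values were interleaved on both days. The log2 difference was 0.14 at day 25 (95% confidence interval −0.24 to 0.52) and 0.11 at day 30 (−0.27 to 0.49). Over both days it was 0.12 (SE 0.119, limma with Benjamini-Hochberg adjustment, adjusted p = 0.453), with an interval of −0.13 to 0.38.

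The Sirt1 window is shown because, with 1 of the 2 windows of Nadk, it held the E-box CACGTG, which 6.02% of all windows held. The 250 bases lie at mm10 chr10:63339036-63339285 and are written 5′ to 3′ on the minus strand, from RefSeq as above, with the E-boxes in capitals.
Sirt1: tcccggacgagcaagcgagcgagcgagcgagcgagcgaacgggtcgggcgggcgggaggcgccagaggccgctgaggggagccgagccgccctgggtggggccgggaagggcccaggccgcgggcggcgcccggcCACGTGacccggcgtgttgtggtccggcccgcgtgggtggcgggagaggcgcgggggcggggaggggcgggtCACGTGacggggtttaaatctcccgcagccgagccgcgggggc
The E-boxes began 115 and 43 bases before the start. The second Nadk window, the one with an E-box, belongs to a start 1423 bases from that of the transcript in the table. The forkhead word occurred in 3.17% and the CRE in 1.55% of all windows, and neither was found in the 13 windows of the 10 genes. These matches describe letters in the windows. The Sirt1 window stood before a gene without a call. The Nadk window with the E-box lay downstream of the start of the counted transcript, which rose at day 30. The Nadk window before that start held no E-box.

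Sirt6, a chromatin-bound deacetylase, was the least abundant of the 10. At day 25 Sirt6 (NM_181586, mm10 chr10:81621786-81627608, minus strand) stood at 1.22, 1.70 and 1.93 FPKM in Con mice and 1.48, 1.2 and 0.969 FPKM in CR mice. At day 30 it stood at 1.70, 1.19 and 1.31 FPKM in Con mice and 1.17, 1.25 and 0.911 FPKM in CR mice. The CR values lay toward the low end and overlapped with Con values on both days. Over both days Sirt6 fell, with a log2 difference of −0.21 (SE 0.0908, limma with Benjamini-Hochberg adjustment, adjusted p = 0.0922), and at neither day alone was it called (adjusted p = 0.297 and 0.361). That call was lost with median-ratio scaling (adjusted p = 0.161), quantile normalization (0.249), no filter (0.129) and voom on recovered reads (0.108). It was also lost without any 1 of 8 libraries, which were Con8 (adjusted p = 0.150), Con9 (0.183), CR8 (0.133), CR9 (0.189), Con10 (0.184), Con12 (0.111), CR10 (0.115) and CR12 (0.170).

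Sirt7, a deacetylase of the nucleolus, stood at 19.5, 21.4 and 20.7 FPKM in Con mice and 17.4, 20.4 and 17.5 FPKM in CR mice at day 25 (NM_153056, mm10 chr11:120618372-120625002, minus strand). The day 30 levels of Sirt7 were 19.98, 14.8 and 18.4 FPKM in Con mice and 17.02, 16.6 and 14.4 FPKM in CR mice. Con and CR values overlapped on both days. The log2 difference over both days was −0.14 (SE 0.0790, limma with Benjamini-Hochberg adjustment, adjusted p = 0.194), and it was called with TPM (adjusted p = 0.0739) and without Con11 (0.0634), the Con mouse with the lowest value.

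Sirt2, the cytosolic tubulin deacetylase, stood at 25.9, 30.6 and 25.7 FPKM in Con mice and 29.0, 31.4 and 30.9 FPKM in CR mice at day 25 (NM_001122766, mm10 chr7:28766752-28788665, plus strand). The corresponding values at day 30 were 29.4, 25.6 and 26.9 FPKM in Con mice and 29.1, 27.2 and 28.8 FPKM in CR mice. Levels were close throughout, and the groups overlapped on both days. The log2 difference over both days was 0.10, with a 95% confidence interval of −0.04 to 0.24 (limma, adjusted p = 0.246), and it was called with median-ratio scaling (0.17, adjusted p = 0.0433). For the 7 sirtuins as a list, limma called 0 at day 25, beside 14.9% of all tested genes. On that day 1 had an unadjusted p under 0.05 (Sirt4), and voom called 0. At day 30 limma called 1 of the 7, beside 24.7% of all tested genes, and over both days 3, beside 40.6%. These counts, too, carry no result about the sirtuins together.

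The CR effect at day 30 was then set against that at day 25, since the study places its transition between these days. Among the 10 genes the difference in log2 effect ran from −0.09 (Sirt2) to 0.22 (Nadk). limma called 0 of the 10, with 0 at an unadjusted p under 0.05 and 0 with voom, beside 0.00944% of all tested genes, which was 1 gene, Snord55, a small nucleolar RNA named after its value was seen. Within CR mice, day 30 against day 25 gave log2 differences from −0.19 (Sirt7) to 0.20 (Sirt1). Again limma called 0 of the 10, with 0 at an unadjusted p under 0.05 and 0 with voom, beside 0.321% of all tested genes, 34 genes. The 95% confidence interval of the difference in Nampt effect between the days was −0.39 to 0.58.

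The other genes of NAD metabolism were taken from lists of 34 genes, of which 29 were tested. Nmnat2, Nmrk2, Bst1 and Sarm1 stayed under the limit on low values and Ido1 was listed at 0 in every library. Of the 29, 2 rose and 4 fell at day 25, 4 rose and 7 fell at day 30, and 6 rose and 10 fell over both days. Their median log2 fold changes were −0.03, −0.01 and −0.04. These counts, too, are to be read against the shares of all tested genes given above. limma called 0 of the 29 for the difference between the days, with 2 at an unadjusted p under 0.05 (Aox1 and Tnks) and 0 with voom. It called 0 for day 30 against day 25 within CR, with 4 at an unadjusted p under 0.05 and 0 with voom.

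**Figure D4:**
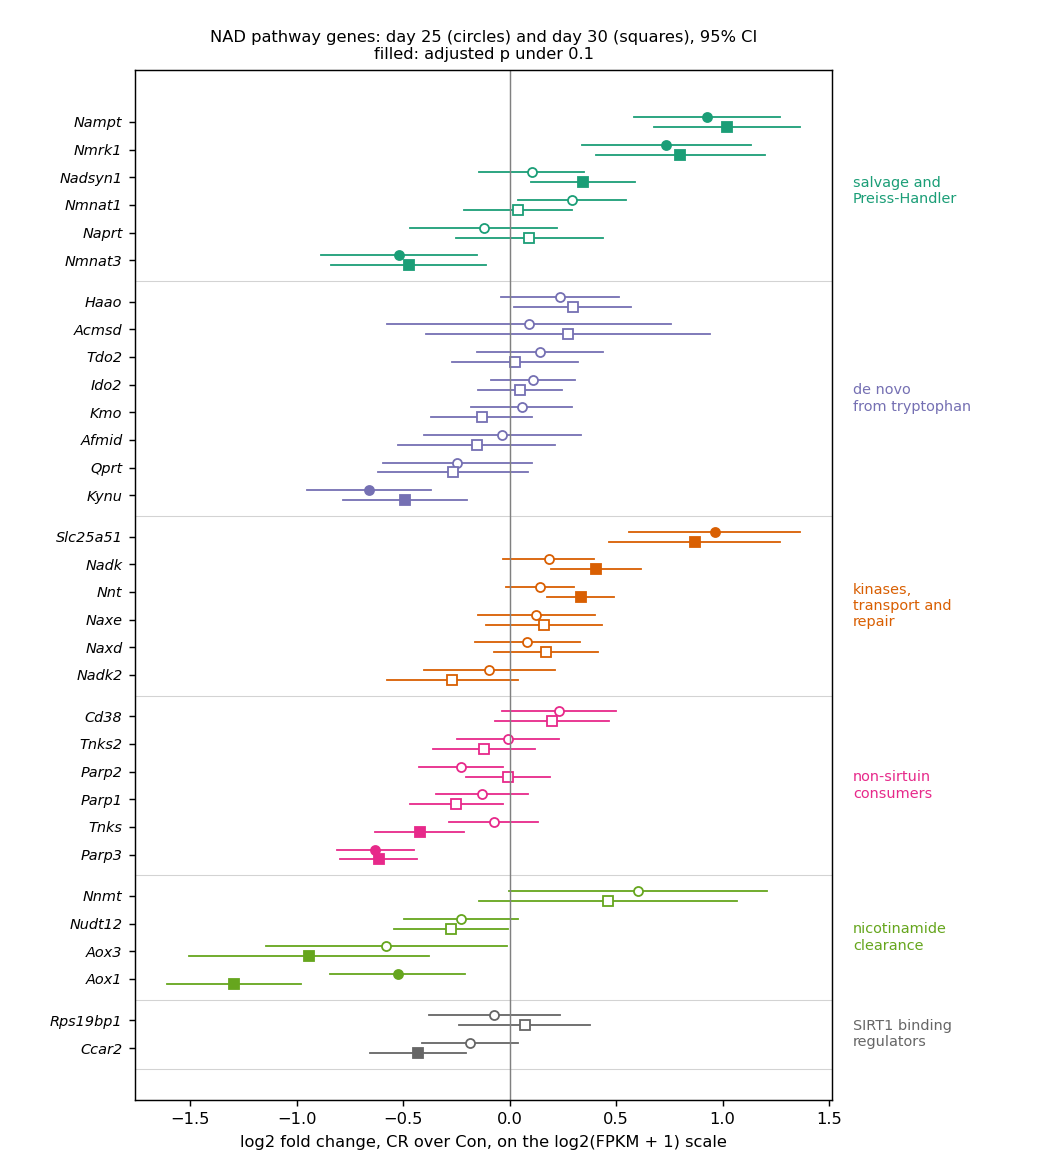
Log2 fold change of CR over Con on the log2(FPKM + 1) scale for the tested genes of the 6 NAD pathway lists at day 25 (circles) and day 30 (squares), with 95% confidence intervals, colours for the lists and filled symbols for an adjusted p under 0.1. Nampt, Nmrk1 and Slc25a51 lie farthest to the right, and Aox1 at day 30, at −1.29, lies farthest to the left.

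Salvage and Preiss-Handler genes, 6 tested with Nampt included, held 2 that rose and 1 that fell at day 25, and 3 that rose and 1 that fell at day 30 and over both days. The shares of all tested genes called were 14.9% at day 25, 24.7% at day 30 and 40.6% over both days. Nmrk1, the kinase that brings nicotinamide riboside into NAD, stood at 9.50, 12.2 and 11.6 FPKM in Con mice and 19.1, 23.6 and 15.4 FPKM in CR mice at day 25. Con mice at day 30 stood at 11.3, 16.6 and 10.7 FPKM and CR mice at 22.9, 26.4 and 19.6 FPKM. On each day the CR mice lay above the Con mice. Nmrk1 rose by 0.77 on the log2 scale over both days (SE 0.125, limma with Benjamini-Hochberg adjustment, adjusted p = 0.000641), and by 0.74 at day 25 (adjusted p = 0.0272) and 0.80 at day 30 (adjusted p = 0.0117). Nmnat3, described as the mitochondrial adenylyltransferase, averaged 3.18 ± 0.178 and 3.58 ± 0.617 FPKM in Con mice and 1.96 ± 0.598 and 2.32 ± 0.721 FPKM in CR mice at days 25 and 30 (SD, n = 3 each). It fell over both days, with a log2 difference of −0.50 (SE 0.114, limma, adjusted p = 0.00592). Nadsyn1, the NAD synthetase, rose at day 30 by 0.34 (limma, adjusted p = 0.0560), a call lost in the fit of the 6 compared libraries (adjusted p = 0.103) and without Con10 (0.1002), Con11 (0.191) or CR10 (0.212). Naprt, the entry enzyme for nicotinic acid, had a log2 difference of −0.01 over both days (limma, adjusted p = 0.937), and shares 277 exon bases with Eef1d on the same strand. Nmnat1, the nuclear adenylyltransferase, had one of 0.29 at day 25 (limma, adjusted p = 0.141), which was called with the replicate block (adjusted p = 0.0933) and without Con9 (0.039). Its difference over both days, 0.17 (limma, adjusted p = 0.161), was called with median-ratio scaling (0.0738), quantile normalization (0.072) and without Con9 (0.0860).

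The route from tryptophan held 8 tested genes, of which 1 fell at each day (Kynu), and 1 rose and 2 fell over both days. Beside these counts, 14.9%, 24.7% and 40.6% of all tested genes were called at day 25, at day 30 and over both days. Kynu, the kynureninase, stood at 54.6, 52.6 and 59.9 FPKM in Con mice and 31.7, 31.2 and 42.5 FPKM in CR mice at day 25. By day 30 the Con values were 45.7, 46.4 and 58.6 FPKM and the CR values 34.0, 33.9 and 37.7 FPKM. All 6 CR mice lay below all 6 Con mice. Its log2 difference over both days was −0.58 (SE 0.0938, limma with Benjamini-Hochberg adjustment, adjusted p = 0.000656), and the call at day 30 (adjusted p = 0.0273) was lost without Con12 (adjusted p = 0.102). Haao, which makes the precursor of quinolinate, rose over both days by 0.27 (limma, adjusted p = 0.0316). Its day 30 difference of 0.30 (limma, adjusted p = 0.131) was called with median-ratio scaling (0.0473), TPM (0.0852) and quantile normalization (0.0969). Qprt, which carries quinolinate into NAD synthesis, fell over both days with a log2 difference of −0.26 (limma, adjusted p = 0.0921), a call lost with median-ratio scaling (adjusted p = 0.177), the filter at 0.1 FPKM (0.103) and no filter (0.137). Tdo2, the first enzyme of the route, was the most abundant gene of the list at 1022 ± 115 FPKM in Con mice (SD, n = 6), with a log2 difference of 0.08 (limma, adjusted p = 0.521). Acmsd, which diverts the route away from NAD, had one of 0.18 (limma, adjusted p = 0.539).

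Kinases, transport and repair, 6 genes with Nadk included, held 1 that rose at day 25 and 3 that rose at day 30 and over both days, and none that fell. Among all tested genes, 14.9%, 24.7% and 40.6% were called at day 25, at day 30 and over both days. Slc25a51, the carrier that brings NAD into mitochondria, stood at 14.5, 18.7 and 20.5 FPKM in Con mice and 34.5, 27.8 and 46.4 FPKM in CR mice at day 25. Livers taken at day 30 gave 11.4, 13.4 and 16.3 FPKM in Con mice and 25.8, 22.9 and 28.3 FPKM in CR mice. No CR mouse overlapped with a Con mouse. Slc25a51 rose over both days by 0.92 on the log2 scale (SE 0.127, limma with Benjamini-Hochberg adjustment, adjusted p = 0.000201), by 0.96 at day 25 (adjusted p = 0.00830) and by 0.87 at day 30 (adjusted p = 0.00827). Nnt, the mitochondrial transhydrogenase, of which C57Bl/6J mice are known to carry a deleted form, averaged 12.8 ± 0.171 and 11.3 ± 0.295 FPKM in Con mice and 14.2 ± 0.417 and 14.5 ± 0.373 FPKM in CR mice at days 25 and 30 (SD, n = 3 each). It rose at day 30 by 0.33 (SE 0.0733, limma, adjusted p = 0.00975). Nadk2, the mitochondrial NAD kinase, had a log2 difference of −0.18 over both days (limma, adjusted p = 0.173), which was called without CR7 (0.0996).

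Of the 6 tested NAD consumers other than sirtuins, Cd38 included, 1 fell at day 25, 2 fell at day 30, and 1 rose (Cd38) and 3 fell over both days. Calls over all tested genes made up 14.9% at day 25, 24.7% at day 30 and 40.6% over both days. Parp3, a mono-ADP-ribosyltransferase of DNA repair, stood at 7.59, 7.62 and 7.93 FPKM in Con mice and 4.38, 5.25 and 4.28 FPKM in CR mice at day 25. At day 30 it stood at 7.95, 8.25 and 7.55 FPKM in Con mice and 4.65, 4.88 and 4.91 FPKM in CR mice. The gap between the diets was wide beside the spread within each. The log2 difference of Parp3 over both days was −0.62 (SE 0.0559, limma with Benjamini-Hochberg adjustment, adjusted p = 1.16e-05), with −0.63 at day 25 and −0.62 at day 30. Tnks, a tankyrase, fell at day 30 with a log2 difference of −0.42 (limma, adjusted p = 0.0111), and its call over both days was lost with quantile normalization (adjusted p = 0.115). Parp1, the main poly(ADP-ribose) polymerase, fell over both days with one of −0.19 (limma, adjusted p = 0.0513), and the call was lost with median-ratio scaling (adjusted p = 0.141) and quantile normalization (0.115). Its day 30 difference of −0.25 (limma, adjusted p = 0.106) was called with TPM (0.0551), voom (0.0996) and the compared libraries alone (0.0989). It was also called without CR8 (0.0857) or CR9 (0.0658).

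Nicotinamide clearance, 4 tested genes with Nudt12 included, held 1 that fell at day 25 and 2 that fell at day 30. Over both days 1 rose and 3 fell. The shares called among all tested genes were 14.9% at day 25, 24.7% at day 30 and 40.6% over both days. Aox1, an aldehyde oxidase that acts on methylnicotinamide, stood at 31.2, 25.9 and 24.3 FPKM in Con mice and 15.8, 20.1 and 19.7 FPKM in CR mice at day 25. The corresponding values at day 30 were 41.2, 38.9 and 30.9 FPKM in Con mice and 12.5, 16.5 and 14.4 FPKM in CR mice. The diets were apart on both days and farther apart at day 30. Aox1 fell at day 30 with a log2 difference of −1.29 (SE 0.145, limma with Benjamini-Hochberg adjustment, adjusted p = 0.000198) and at day 25 with one of −0.53 (adjusted p = 0.0412), a call lost without Con7 or CR7 (adjusted p = 0.142 each). The difference between the days, −0.77, was not called (limma, adjusted p = 0.860). The related Aox3 fell at day 30 with a log2 difference of −0.94 (limma, adjusted p = 0.0283), a call lost without Con11 (0.102) or CR10 (0.119). Its day 25 difference of −0.58 (limma, adjusted p = 0.191) was called with the replicate block (adjusted p = 0.0157) and without Con9 (0.0984). Nnmt, which methylates nicotinamide, rose over both days by 0.53 (SE 0.191, limma, adjusted p = 0.0494), a call lost without Con7 (adjusted p = 0.106), CR9 (0.109) or CR10 (0.103). Its day 25 difference of 0.60 (adjusted p = 0.204) was called with the block (limma, adjusted p = 0.0132) and without Con11 (0.0831). Nudt12, which splits NADH in peroxisomes, was counted in this list though its substrate is not nicotinamide or its methylated form. It fell over both days with a log2 difference of −0.25 (limma, adjusted p = 0.0346), a call lost with median-ratio scaling (adjusted p = 0.111). The day 30 difference of Nudt12, −0.28 (limma, adjusted p = 0.144), was called without CR11 (0.0969). The gene shares 323 exon bases with an antisense transcript. Of the 2 SIRT1 binding regulators, Ccar2, known as an inhibitor of SIRT1, fell at day 30 with a log2 difference of −0.43 (limma, adjusted p = 0.0158) and the other was not called in any comparison. This count, too, stands beside 24.7% of all tested genes called at day 30. Exons shared with another annotated gene, whose reads may be counted together, were also found for Tnks (635 bases), Slc25a51 (125 bases), Acmsd (94 bases), Ccar2 (39 bases) and Parp1 (7 bases).

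Genes with the most similar pattern over the 12 libraries were ranked by Pearson r of log2(FPKM + 1), as a description in which diet, day and library are shared by all genes. Nampt ran closest to Epas1 (r = 0.954) and Plce1 (r = 0.953). Nadk ran closest to Por (r = 0.968) and Ip6k2 (r = 0.962). Sirt3 ran closest to Ndufa2 (r = 0.977), a subunit of respiratory complex I, and Etfb (r = 0.973), a subunit of the electron transfer flavoprotein. Sirt1 ran closest to Srsf10 (r = 0.971), a splicing factor, and Sirt4 to Mapre3 (r = 0.952) and Adck5 (r = 0.952). The closest genes were Pglyrp2 (r = 0.946) for Sirt7, Npepps (r = 0.922) for Cd38, Dda1 (r = 0.914) for Sirt2, Stoml1 (r = 0.913) for Sirt6 and Nudt16 (r = 0.885) for Sirt5.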

How the data were processed

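Liver RNA from 12 mice in 4 groups of 3 was analyzed. Per the labels and the study's methods, the authors ran all libraries on 1 lane with paired-end reads, made fastq files with CASAVA 1.8.2, mapped reads to mm10 with BWA and tested expression with DESeq2, whose results are not used here. The authors deposited FPKM values, for which the file header names HOMER, counting over exons, 1 RefSeq transcript per gene and no scaling between libraries. Versions of BWA and HOMER and the use of strand in counting are not given in the sources used here. Labels of the Con mice at day 30 do not tell them apart, so their columns were tied to the group alone.

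The spacing of the smallest FPKM values gave back whole reads (100% of 1500 values per library within 0.1 of a whole read) and depths of 15748724 to 23345541 reads. Depth limits the precision of genes with few reads. FPKM are not counts, so log2(FPKM + 1) was fitted with limma 3.58.1 in R 4.3.3, with empirical Bayes moderation and a trend, for 10593 genes that reached 1 FPKM in 3 or more libraries. Contrasts of the 4 group means gave CR against Con for either day, the difference of these effects, and day 30 against day 25 within CR. A second model with day as a covariate gave the effect over both days. Tests were 2-sided, and calls used a Benjamini-Hochberg adjusted p under 0.1 over all tested genes. For 3 against 3 mice the smallest p of an exact permutation test is 0.1. The pseudocount makes the fold changes of low genes smaller. The fit was tested on simulated data.

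The 10 genes and the pathway lists were chosen with earlier results of these data known. Named genes were all 10, 11 fixed genes of the lists, and the 10 called list genes with the largest change over both days beyond these. For each of the 10, the 2 most similar genes were ranked. Same-numbered Con and CR mice at day 25 deviated together (correlations of 0.106 to 0.368). A fit with the number as a block is therefore given beside results it changes. In CR mice between days, same-numbered mice did not deviate together (−0.382 to 0.299). The labels do not say what mice of the same number share. The correlations come from the same values that the block is fitted to, so calls gained with it are given as a sensitivity result only. Alternatives were median-ratio scaling, TPM, quantile normalization, a pseudocount of 0.1, a filter at 0.1 FPKM or none, no trend, voom on recovered reads, the compared libraries alone, a threshold of 0.05, the block, and leaving out each library. Sequences came from RefSeq promoters of GRCm38.p6, with all 10 genes matched, and exon overlaps from GENCODE vM21. Tables and figures used matplotlib 3.10.9, numpy 2.4.6, pandas 2.3.3 and Python 3.11.15.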

Additional observations from a re-analysis of the deposited data

How the results depend on the processing

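The calls of Nampt in the 3 comparisons with Con, and of Nadk at day 30 and over both days, held under all alternatives run. The count of called genes among the 10 at day 25 went from 1 to 2 with TPM and to 2 with the replicate block, and over leave-one-out fits it was 1 to 2 at day 25, 2 to 4 at day 30, 4 to 7 over both days and 0 in the comparisons between days. Over all genes, an adjusted p under 0.05 called 969 at day 25, 1740 at day 30, 0 for the difference between days and 7 within CR, and leave-one-out fits called 893 to 1589 at day 25 (1000 without Con7, 1004 without CR7 and 893 without CR9, against 1582), 1497 (without CR10) to 2680 at day 30, 0 to 5 for the difference and 2 to 45 within CR (2 without CR7, 3 without CR10, 8 without Con8, 11 without CR9, 14 without CR8 and 16 without CR11, against 34). For the difference between days, quantile normalization called 0, voom 0, a pseudocount of 0.1 called 3 and a filter at 0.1 FPKM 4. Within CR, the pseudocount called 21, the filter at 0.1 FPKM 15, no filter 8 and voom 52. The replicate block called 2077 genes at day 25, and within CR mice between the days, where numbers do not pair the mice, 39. It gave Sirt3, Nmnat1, Nnmt and Aox3 a call at day 25 and changed no other call of a named gene. Signs that turned belonged to differences that were not called. They were Tdo2 at day 30 with TPM (−0.00869), over both days Sirt5 with median-ratio scaling (0.0555) and quantile normalization (0.0616) and Naprt with median-ratio scaling (0.0560), and the Sirt1 difference between days with quantile normalization (0.00173). In leave-one-out fits the log2 values spanned 0 for Sirt5 (−0.15 to 0.0263), Acmsd (−0.23 to 0.35) and Nadk2 (−0.18 to 0.0247) at day 25, for Sirt1 (−0.00458 to 0.22), Sirt5 (−0.0509 to 0.21) and Tdo2 (−0.0899 to 0.16) at day 30, and for Sirt5 (−0.0557 to 0.0618) and Naprt (−0.0664 to 0.0393) over both days. For the difference between days they did so for Sirt1 (−0.21 to 0.0799), Sirt3 (−0.0367 to 0.19), Sirt4 (−0.15 to 0.000496), Sirt6 (−0.0348 to 0.17), Sirt7 (−0.0999 to 0.11), Nampt (−0.0794 to 0.27) and Cd38 (−0.16 to 0.0710), and within CR for Sirt3 (−0.15 to 0.0816), Sirt4 (−0.12 to 0.0340) and Sirt6 (−0.15 to 0.0143). Calls that rested on single libraries, beyond those given above, were Nmnat3 at day 25 (lost without Con7, Con8, Con9, CR7 or CR9, adjusted p = 0.126 to 0.244) and at day 30 (without Con10, Con12, CR10 or CR12, 0.154 to 0.217), and over both days Nadsyn1 (without Con11 or CR10), Parp1 (without CR9, Con10 or CR10) and Qprt (without 9 of the 12 libraries, 0.118 to 0.188), all by limma with Benjamini-Hochberg adjustment. Among settings, Nmnat3 lost its call at day 25 with quantile normalization and no filter and at day 30 with these and median-ratio scaling. The cause of these changes was not tested. Depth limits the precision of genes with few reads, such as Sirt6 with 32 to 59 per library.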
